A study of Mus musculus with 6 samples.

Results

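The genes described here build and drive the contractile apparatus of muscle. They are 46 genes of the sarcomere, of excitation-contraction coupling, of the muscle acetylcholine receptor and of cell fusion, chosen by name with earlier results of these data known. Probes were assigned to them through the RefSeq accession that the array gives for each probe. Of the 46 genes, 45 had a probe and 1, Smpx, had none matched, out of 37153 genes and unnamed features on the array. Of the 45, 43 exceeded background clearly on both replicates of 1 group or more and were tested. Myh2 and Klhl41 were well above background on 1 array alone and were not tested.

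Expression was measured on 6 one-colour arrays, 2 for each of 3 kinds of cultured mouse cell. Muscle-derived stem cells (MDSC) were the slowest adhering cells of whole hindlimb muscle from 5 week old males, collected as preplate 6 on day 4, expanded in medium with 10% fetal bovine and 10% horse serum, and taken at passage 1. One MDSC group came from mice with the label Mstn-null, Mstn being the gene of myostatin, an inhibitor of muscle growth, and the other from wild-type (WT) mice, each with 2 isolations. The third group was W4, an established embryonic stem cell (ESC) line, taken at passages 12 and 15. Cultures of all 3 groups were at 70% confluence by their labels, and no group was treated. The number of mice per isolation, their strain and the Mstn allele are not given in the sources used here. The ESC arrays are passages of 1 line, so their spread does not include differences between lines. One label field calls the ESC culture feeder free, while the growth protocol describes fibroblast feeders that were removed by a short plating step. The arrays measure whole cultures, in which fewer cells of a type and less RNA per cell cannot be told apart.

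Muscle contracts when myosin of the thick filament pulls on actin of the thin filament, and troponin on the thin filament lets this happen only when calcium is released. Most of these proteins come in isoforms made by separate genes for developing, slow, fast and cardiac muscle. Developing skeletal muscle uses embryonic and perinatal myosins and, for a time, several isoforms that the heart keeps. Proliferating myoblasts express few of these genes, and their levels climb when the cells leave the cell cycle, fuse and form myotubes.

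Between 53.3% and 64.6% of the 59305 non-control spots of an array were well above background, with none saturated. Levels are log2 signals relative to the array's 75th percentile and are compared only between arrays for the same probe. Differences are log2 differences between group means from limma, with Benjamini-Hochberg adjusted p over 25055 features and a threshold of 0.05. With 2 arrays a group, an exact permutation test of a single gene cannot give a p below 0.333, so the arrays are shown one by one. Both WT arrays lay on 1 slide and the other 4 arrays on another, so a slide effect and the WT group cannot be told apart. The Mstn probe exceeded background clearly only in the Mstn-null arrays, at -3.06 and -2.47, against -4.90 and -6.71 in WT and -7.23 and -6.85 in ESC. The place of that probe relative to the deleted part is not given in the sources used here, so it does not check the labels, and groups are called by their labels.

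One array stood apart for nearly all of these genes, and this precedes every result below. WT replicate 1 was the highest of the 4 MDSC arrays for 45 of 45 genes, and the highest of all 6 arrays for 43 of 45. Among the 43 tested genes it was the highest for 41, against 15.2% of all features tested. Its level exceeded that of WT replicate 2 by a median of 3.43 over the 45 genes (0.67 to 9.15), whereas the median over all features tested was -0.07. The gap was over 2, which is over 4-fold, for 39 of the 43 tested genes, against 1.84% of all features. Myh4 had the largest gap of all features, with WT replicate 2 not well above background. In 10 genes with several probes, each of the 12 further probes also read higher on WT replicate 1 than on WT replicate 2, by 1.09 (Ttn) to 4.35 (Neb).

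In the contractile genes the other pairs of arrays lay closer together. The Mstn-null arrays differed by over 2 in 1 of 43 tested genes (Myh4), against 1.44% of all features, and the ESC arrays in 3 of 43 (Acta1, Neb and Ttn), against 3.07%. The mean of the Mstn-null arrays minus WT replicate 2 had a median of -0.14 over these genes. Over all features tested without WT replicate 1 it was -0.17. Summed over the 45 genes, the signal relative to the 75th percentile was 79.6 and 67.5 on the Mstn-null arrays, 784.6 and 79.6 in WT, and 44.7 and 50.5 in ESC. Without Mymx, which made up much of the ESC sums, they were 78.7 and 67.0 in Mstn-null, 778 and 78.6 in WT and 17.0 and 25.3 in ESC. In these sums WT replicate 1 thus stood far above the other 3 MDSC arrays, and these above ESC. By role, the 3 arrays lay above ESC in thin filament, thick filament, excitation-contraction and acetylcholine receptor sums. In the Z disc and M band group WT replicate 2 (3.12) lay below ESC (3.70 and 3.31). In energy and turnover all 3 lay below ESC (0.50 and 0.63), at 0.15 and 0.11 in Mstn-null and 0.17 in WT replicate 2.

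**Figure D1:**
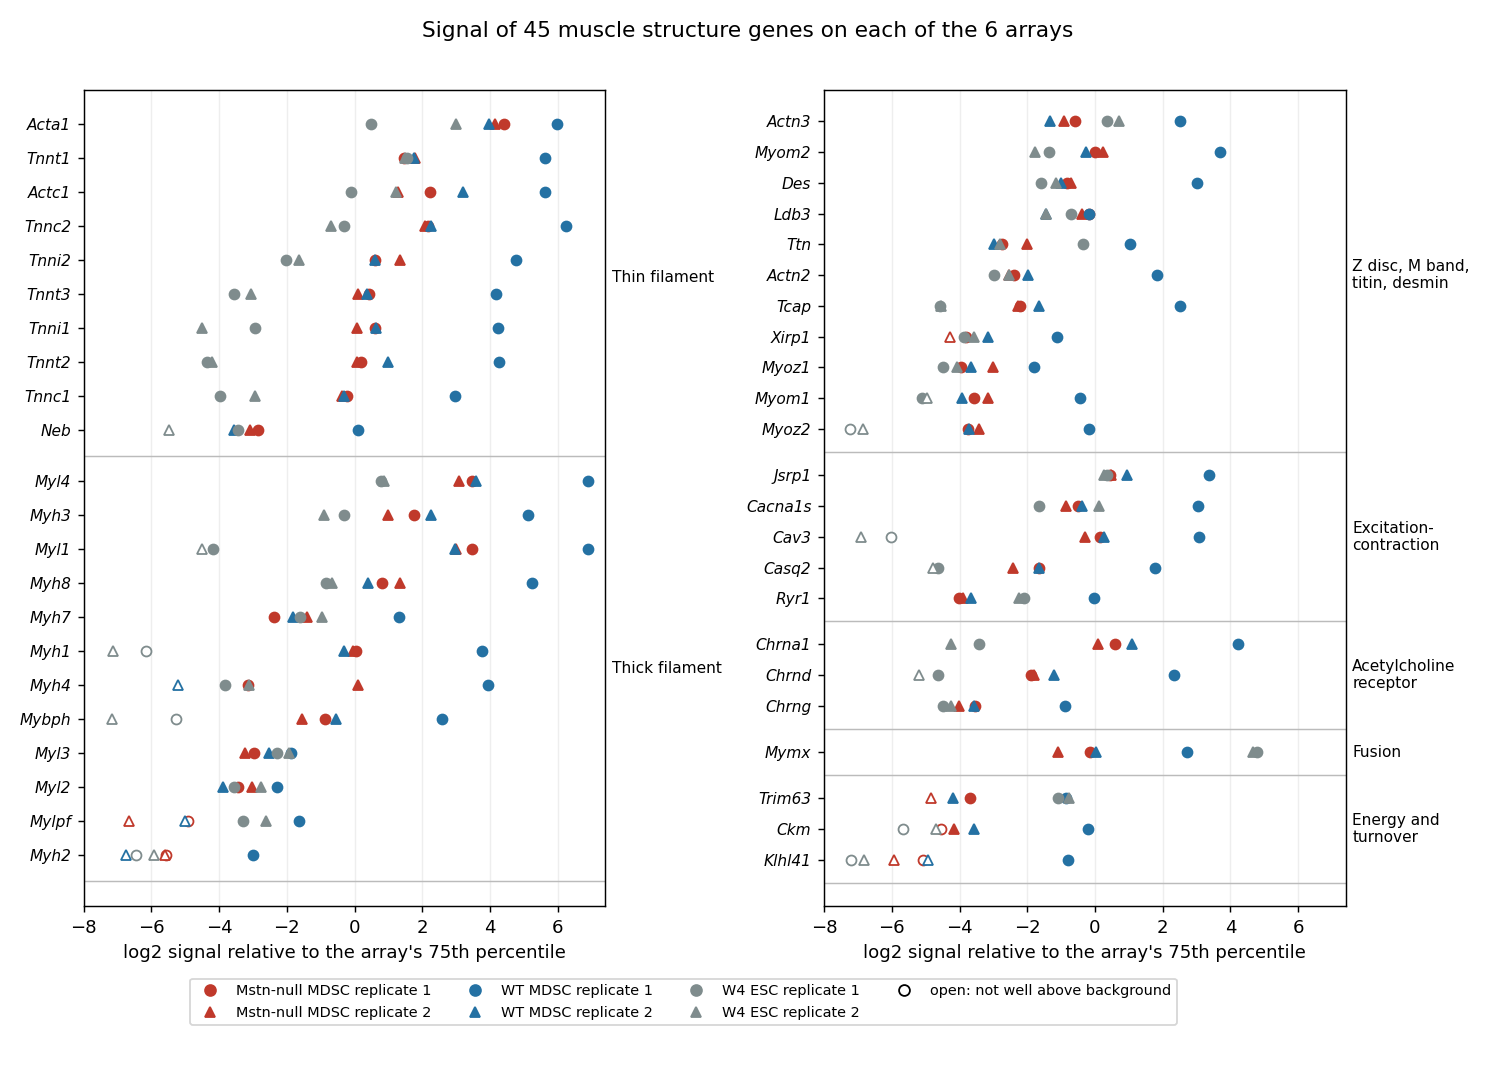
Log2 signal relative to the array's 75th percentile (x axis) for each of the 45 genes with a probe, grouped by role. Colours mark the groups, circles replicate 1 and triangles replicate 2, and open symbols were not well above background; WT replicate 1 is the rightmost point for 43 of the 45 genes.

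Several marker lists also differed between the WT arrays. Over 8 skeletal muscle regulators the median gap between WT replicate 1 and WT replicate 2 was 1.25. It was 3.17 for Myf6, 2.33 for Mef2c, 2.20 for Myod1 and 2.00 for Myog. For Pax7 (0.19), Mef2d (0.06) and Mef2a (-0.08) the WT arrays were close, and Myf5 (0.49) was well above background on no array. WT replicate 1 was the highest of the 6 arrays for 7 of the 8, and Mef2a was highest in ESC. Myog, a factor that drives myoblast differentiation, was at -0.16 and -1.75 in Mstn-null, 2.58 and 0.58 in WT and -5.44 and -6.19 in ESC. Myod1, which commits cells to the muscle lineage, was at -3.48 and -3.94 in Mstn-null, -0.04 and -2.24 in WT and -5.33 and -5.46 in ESC. Myog and Myod1 were thus highest on the same array as the contractile genes, and both were detected above background in the 4 MDSC arrays but in neither ESC array. All 5 proliferation genes were lower on WT replicate 1 than on WT replicate 2, by a median of 1.48. Their summed signals were 19.4 and 16.2 in Mstn-null, 12.6 and 36.1 in WT and 139 and 129 in ESC. WT replicate 2 thus had the highest sum of the MDSC arrays. Among markers of other cells, the 7 fibroblast genes had a median gap of 1.59 and the 6 macrophage and immune genes one of 1.37 in the same direction, and the 7 cardiomyocyte genes one of -0.04. The 7 smooth muscle genes had a median gap of 0.98. Of them, 3 had one over 2 (Myh11, Actg2 and Cnn1), against 1.84% of all features. In the fibroblast and smooth muscle lists WT replicate 2 was the array apart from the other MDSC arrays. Mean levels of fibroblast genes were 6.36 and 6.76 in Mstn-null and 6.45 and 5.31 in WT. Those of smooth muscle genes were 3.52 and 3.50 in Mstn-null and 3.45 and 2.23 in WT. The ESC arrays differed in such markers too. Fibroblast genes were higher on ESC replicate 1 than on ESC replicate 2, by a median of 3.29 (up to 8.11, Lum), and 5 of 7 smooth muscle genes were lower by over 2, where 3.07% of all features differed by over 2 in either direction. The part of these shifts in the results below was not tested.

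**Figure D2:**
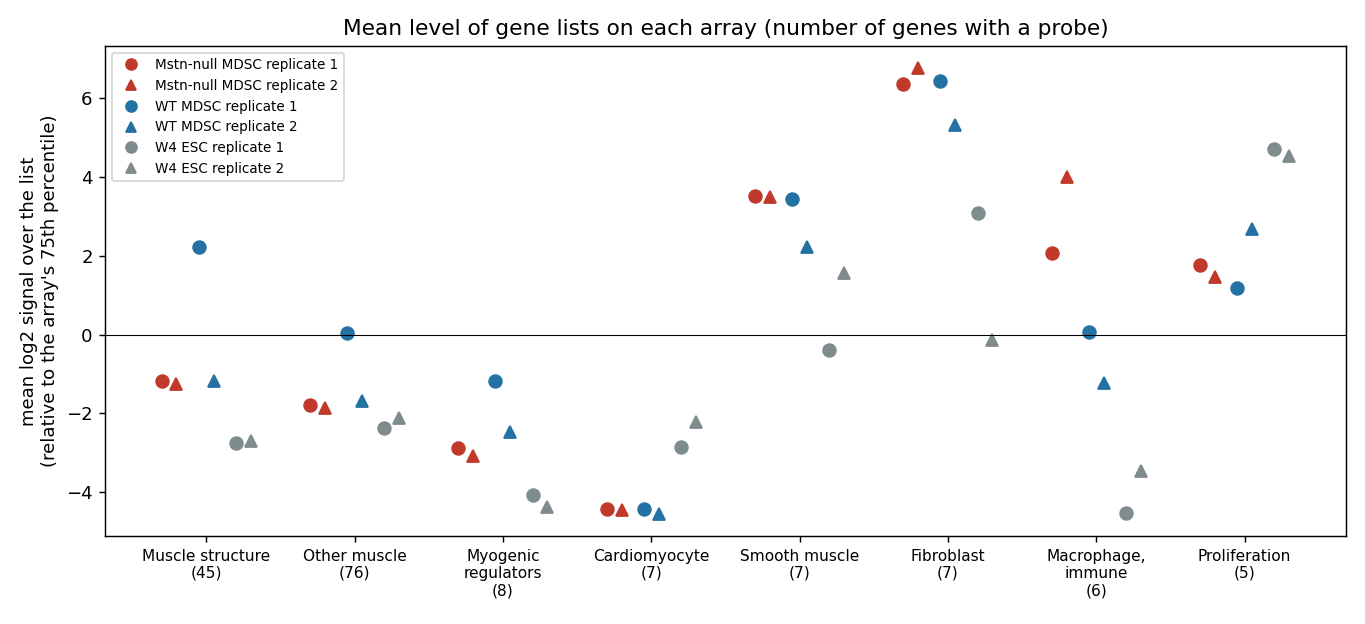
Mean log2 signal (y axis) of the contractile genes, of other muscle genes and of 6 marker lists on each array, with the number of genes that had a probe under each name. WT replicate 1 stands above the other 3 MDSC arrays for the 3 muscle lists and is the lowest of them for proliferation; the cardiomyocyte list is higher in both ESC arrays than in any MDSC array.

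In Mstn-null MDSC, 7 of the 43 tested genes rose against ESC: the thin filament genes Tnnt2 and Tnni1, the thick filament genes Myh1, Myl1 and Mybph, the membrane gene Cav3 and the receptor gene Chrna1. Mymx and Myl3 fell. Over all features tested, 23.3% were called higher and 30.8% lower, so the share of contractile genes called higher, 16.3%, was below that of all features. The median difference over the 43 genes was 1.66, against -0.12 over all features. In WT MDSC, 19 genes rose against ESC and 1, Mymx, fell, against 27.1% of all features called higher and 25.9% lower, with a median difference of 3.24 against 0.03. The comparisons share the ESC arrays, so their values are given side by side for each gene.

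Both WT arrays enter the spread that all comparisons share. Without WT replicate 1, 20 of 43 genes rose and 6 fell in Mstn-null MDSC against ESC, where all features gave 21.7% higher and 28.3% lower. WT replicate 2 alone against ESC gave 19 higher and 4 lower, against 19.2% and 17.4% of all features, with the median difference at 1.14. In that comparison 17 of the 19 genes called higher were among those called with both WT arrays. The lone WT array is there assumed to vary like the other groups. Fitted on the Mstn-null and ESC arrays alone, which lay on 1 slide, 20 of 42 genes rose and 6 fell, against 23.1% and 30.6% of all features. Leaving out WT replicate 2 in place of WT replicate 1 also raised the counts in Mstn-null MDSC. These counts were thus larger when 1 WT array was left out, whichever it was. Leaving out a Mstn-null array lowered the count called higher in Mstn-null MDSC. Leaving out an ESC array lowered the count called higher in both MDSC groups. Without WT replicate 2 the count called higher in WT MDSC was larger. Among all features, fewer were called higher in each of these further fits than with all 6 arrays. The counts of these further fits, with 1 array left in a group, are not listed. Myl1 and Cav3 were called higher in both MDSC groups in each of the 6 fits that left out 1 array.

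**Figure D3:**
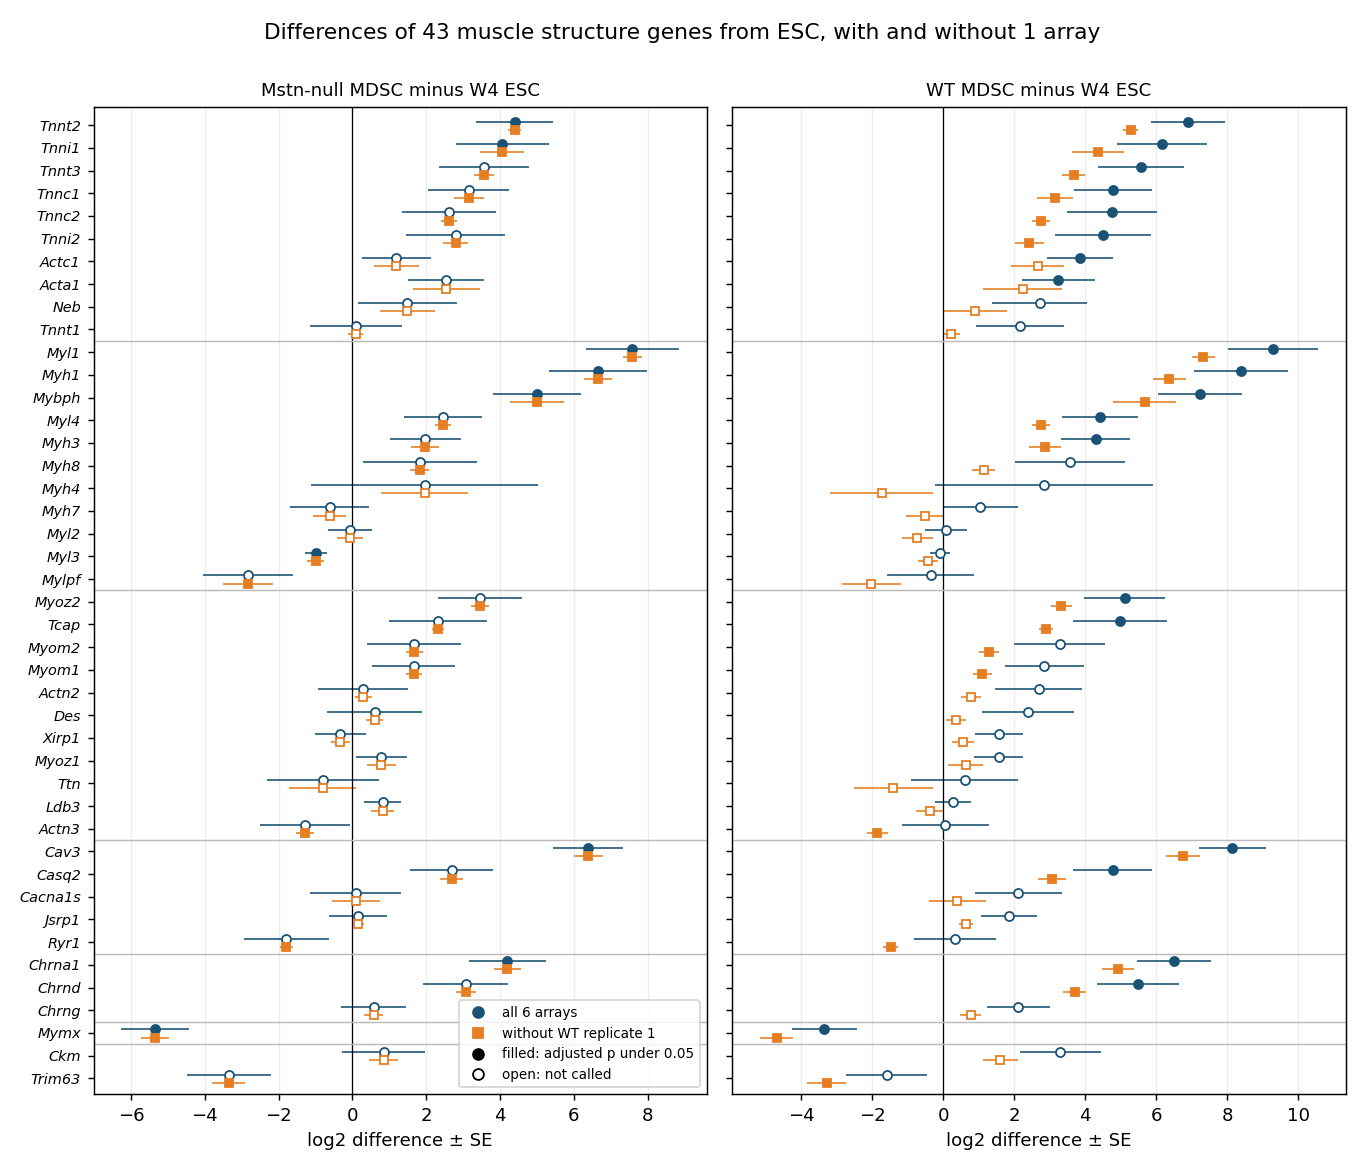
Log2 difference from ESC with its SE (x axis) for the 43 tested genes in Mstn-null MDSC (left) and WT MDSC (right), ordered by role. Circles use all 6 arrays and squares leave out WT replicate 1; filled symbols passed the adjusted p threshold, 7 and 20 of them higher on the left and 19 and 19 on the right.

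Thin filament genes encode actin, the troponin subunits and nebulin, a ruler along the filament. All 10 were tested, 2 rose in Mstn-null MDSC and 8 in WT MDSC against ESC, and none fell. With all 6 arrays the share was 20% in Mstn-null MDSC, below the 23.3% of all features, and 80% in WT MDSC, against 27.1%. Fitted on the Mstn-null and ESC arrays alone, Tnnt3, Tnni2, Tnnc1 and Tnnc2 rose as well, where 23.1% of all features rose. Acta1, skeletal muscle actin, was at 4.42 and 4.15 in Mstn-null, 5.98 and 3.97 in WT and 0.48 and 2.99 in ESC. The MDSC arrays all lay above the ESC arrays, which were far apart. Its difference was 2.54 in Mstn-null MDSC (limma adjusted p = 0.0905) and 3.24 in WT MDSC (adjusted p = 0.0484), where the call was lost without WT replicate 1.

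Tnnt2, the cardiac troponin T that developing skeletal muscle also makes, gave the largest thin filament difference in both comparisons with ESC. It was at 0.19 and 0.06 in Mstn-null, 4.26 and 1.00 in WT and -4.35 and -4.20 in ESC. All 4 MDSC arrays stood well above ESC, and the Mstn-null arrays lay below both WT arrays. The difference from ESC was 4.40 ± 1.04 (SE, limma adjusted p = 0.0201) in Mstn-null MDSC and 6.90 ± 1.04 (adjusted p = 0.00566) in WT MDSC. Its promoter is shown because Tnnt2 rose in both MDSC groups. The 300 bases run from 250 before to 50 after 1 of its 2 listed starts, at chr1:135836084-135836383 on the plus strand of GRCm38.p6 (RefSeq), with E-boxes (CANNTG, the motif that myogenic regulators bind) in capitals.
Tnnt2: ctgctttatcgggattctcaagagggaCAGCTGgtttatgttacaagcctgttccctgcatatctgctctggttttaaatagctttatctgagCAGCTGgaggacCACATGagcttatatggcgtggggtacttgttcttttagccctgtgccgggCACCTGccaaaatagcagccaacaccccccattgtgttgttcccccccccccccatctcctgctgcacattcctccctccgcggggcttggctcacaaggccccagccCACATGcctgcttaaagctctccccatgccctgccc

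Actc1, cardiac actin, had the largest thin filament difference between Mstn-null and WT MDSC. It was at 2.22 and 1.27 in Mstn-null, 5.62 and 3.22 in WT and -0.12 and 1.24 in ESC. It rose in WT MDSC against ESC (3.86, limma adjusted p = 0.0221), a call lost without WT replicate 1, while the difference in Mstn-null MDSC was 1.19 (adjusted p = 0.325). The difference between Mstn-null and WT MDSC, -2.67, had an adjusted p of 0.294 in limma. Tnni1, slow troponin I, was at 0.61 and 0.08 in Mstn-null, 4.24 and 0.64 in WT and -2.95 and -4.49 in ESC, and rose in both MDSC groups (4.06 and 6.16, limma adjusted p = 0.0442 and 0.0134). In Tnni1 the level of WT replicate 2 was that of the Mstn-null arrays.

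Tnnt3, Tnni2, Tnnc1 and Tnnc2, the other troponin subunits that rose in WT MDSC, differed from ESC there by 4.51 to 5.57 (limma adjusted p = 0.0165 to 0.0409). Tnnt1, slow troponin T, was unlike the rest of the group. It was at 1.45 and 1.78 in Mstn-null, 5.63 and 1.75 in WT and 1.55 and 1.49 in ESC, so that every array but WT replicate 1 had about the same level. Neb was not called in either comparison.

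Thick filament genes encode myosin heavy chains, their light chains and myosin binding protein. Of 11 tested, 3 rose and 1 fell in Mstn-null MDSC, and 5 rose in WT MDSC. The share that rose, 27.3% in Mstn-null MDSC, was near the 23.3% of all features, and in WT MDSC it was 45.5% against 27.1%. Myh3, Myh8 and Myl4 rose too when the Mstn-null and ESC arrays were fitted alone, where Mylpf fell as well. In that fit 23.1% of all features rose and 30.6% fell. Myl1, the fast light chain that fast fibres and embryonic muscle use, had the largest differences of all 43 genes. It was at 3.47 and 2.99 in Mstn-null, 6.89 and 2.97 in WT and -4.19 and -4.51 in ESC. The lower WT array lay beside the Mstn-null arrays, more than 7 above either ESC array. The differences from ESC were 7.58 ± 1.26 (SE, limma adjusted p = 0.007) in Mstn-null MDSC and 9.28 ± 1.26 (adjusted p = 0.0043) in WT MDSC.

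Myh1, a fast heavy chain of adult muscle, was at 0.04 and -0.05 in Mstn-null, 3.76 and -0.30 in WT and -6.17 and -7.15 in ESC, where it was not well above background on either array. It was at least 34.0-fold higher in Mstn-null MDSC (limma adjusted p = 0.0119) and at least 113-fold higher in WT MDSC (adjusted p = 0.00645) than in ESC. These bounds set the bright group's mean against, on each dim array, the higher of the gene's own signal and the lowest signal of any probe well above background. The adjusted p, here and beside later bounds, belongs to the log2 difference without this floor. Genes with a bound passed the filter only through brighter arrays, so their selection was not independent of the difference. Myh1, Mybph and Cav3 were not tested when every array had to be well above background. The WT bound rested on WT replicate 1 and was 27.7-fold from WT replicate 2 alone. The promoter of Myh1 is shown as the contrast to that of Tnnt2, at chr11:67199852-67200151 on the plus strand of GRCm38.p6 (RefSeq). It holds no CANNTG in this window, so it has no capitals.
Myh1: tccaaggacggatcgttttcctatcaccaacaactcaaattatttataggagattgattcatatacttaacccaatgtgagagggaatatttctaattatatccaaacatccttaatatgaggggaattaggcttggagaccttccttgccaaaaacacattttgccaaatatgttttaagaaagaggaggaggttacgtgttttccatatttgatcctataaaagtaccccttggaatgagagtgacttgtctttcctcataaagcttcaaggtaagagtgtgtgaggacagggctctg

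Mybph, myosin binding protein H, was at -0.86 and -1.56 in Mstn-null, 2.58 and -0.54 in WT and -5.27 and -7.16 in ESC, not well above background in ESC. It was at least 14.6-fold higher in Mstn-null MDSC (limma adjusted p = 0.02) and at least 68.5-fold higher in WT MDSC (adjusted p = 0.00708), or 23.2-fold from WT replicate 2 alone. Myl4, the atrial and embryonic light chain, was at 3.47 and 3.09 in Mstn-null, 6.91 and 3.58 in WT and 0.79 and 0.86 in ESC. It rose in WT MDSC (4.42, limma adjusted p = 0.0221), and in Mstn-null MDSC the difference was 2.45 (adjusted p = 0.108). Both genes thus had all MDSC arrays above the ESC arrays.

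The heavy chains did not share 1 pattern. Myh3, the embryonic heavy chain, was at 1.75 and 1.00 in Mstn-null, 5.12 and 2.26 in WT and -0.31 and -0.89 in ESC, and rose in WT MDSC (4.29, limma adjusted p = 0.0177). Myh8, the perinatal heavy chain, was at 0.82 and 1.35 in Mstn-null, 5.24 and 0.39 in WT and -0.84 and -0.65 in ESC, and was not called. Every MDSC array lay above both ESC arrays for these developmental chains. Myh4, another fast heavy chain, was at -3.15 and 0.09 in Mstn-null, 3.93 and -5.22 in WT and -3.84 and -3.13 in ESC, where the groups overlapped. Myh7, the slow and ventricular heavy chain, was at -2.39 and -1.41 in Mstn-null, 1.33 and -1.80 in WT and -1.60 and -0.97 in ESC. Apart from WT replicate 1, the MDSC arrays of Myh7 lay among or below the ESC arrays. Myh2, the remaining fast heavy chain, was well above background on WT replicate 1 alone, at -3.01.

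The remaining 3 light chains stood closest to ESC or below it. Myl2, the slow and ventricular regulatory light chain, ranged from -3.89 to -2.29 over the 6 arrays. Myl3, the slow and ventricular essential light chain, was at -2.98 and -3.23 in Mstn-null, -1.87 and -2.54 in WT and -2.29 and -1.93 in ESC. It fell in Mstn-null MDSC against ESC (-0.99, limma adjusted p = 0.0381), a call that was lost with quantile normalization, median centring, normexp and no filter, and without any 1 of the Mstn-null or ESC arrays. Mylpf, the fast regulatory light chain, was at -4.91 and -6.66 in Mstn-null, -1.63 and -4.99 in WT and -3.30 and -2.62 in ESC. It was not well above background on either Mstn-null array, and the difference from ESC was not called (limma adjusted p = 0.107). Without WT replicate 1, Mylpf fell in Mstn-null MDSC (-2.82, limma adjusted p = 0.0325) and was not called in WT MDSC (-2.03, adjusted p = 0.129). These genes were named for their order of groups after their values were seen.

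The Z disc anchors the thin filaments, the M band the thick ones, titin spans between them and desmin links neighbouring myofibrils. With all 6 arrays, none of the 11 tested genes of this group was called in Mstn-null MDSC against ESC. Of all features, 23.3% were called higher and 30.8% lower there. In WT MDSC 2 rose (18.2%, against 27.1% of all features). Myom1, Myom2, Myoz2 and Tcap rose, and Actn3 fell, in the fit of the Mstn-null and ESC arrays alone. In that fit 23.1% of all features rose and 30.6% fell. Myoz2, a calsarcin of slow and cardiac muscle, was at -3.75 and -3.44 in Mstn-null, -0.16 and -3.73 in WT and -7.24 and -6.86 in ESC, not well above background in ESC. It was at least 8.85-fold higher in WT MDSC (limma adjusted p = 0.0176), or 2.57-fold from WT replicate 2 alone, and the bound in Mstn-null MDSC was 2.82-fold (adjusted p = 0.0534). Tcap, which caps titin at the Z disc, was at -2.21 and -2.28 in Mstn-null, 2.51 and -1.65 in WT and -4.56 and -4.55 in ESC, and rose in WT MDSC (4.98, limma adjusted p = 0.0291). For both, the ESC arrays were the lowest.

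Other Z disc and M band genes separated the cell types less. Actn3, the fast fibre alpha-actinin, was at -0.59 and -0.90 in Mstn-null, 2.50 and -1.32 in WT and 0.34 and 0.72 in ESC, so that 3 of 4 MDSC arrays lay below ESC. Without WT replicate 1, Actn3 fell in Mstn-null MDSC (-1.28, limma adjusted p = 0.0168) and WT MDSC (-1.85, adjusted p = 0.0177). Des, desmin, was at -0.83 and -0.69 in Mstn-null, 3.03 and -1.01 in WT and -1.59 and -1.14 in ESC. Apart from WT replicate 1, its arrays lay within a narrow range. Ttn, titin, was at -2.74 and -2.02 in Mstn-null, 1.05 and -2.99 in WT and -0.36 and -2.79 in ESC, where the groups overlapped. Ldb3, a Z disc adaptor, was at -0.18 and -0.37 in Mstn-null, -0.16 and -1.46 in WT and -0.72 and -1.46 in ESC. Its probe gave the only positive difference between Mstn-null and WT MDSC among the 43 genes, 0.54 (limma adjusted p = 0.676), and the mean over its probes turned the sign. Actn2, Myom1, Myom2, Myoz1 and Xirp1 were not called in any comparison with all 6 arrays.

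Excitation-contraction genes carry the signal from the membrane to the calcium store, and Cav3, the muscle caveolin, shapes the muscle membrane. Of 5 tested, 1 rose in Mstn-null MDSC (Cav3) and 2 in WT MDSC (Cav3 and Casq2). These shares of 20% and 40% stood beside 23.3% and 27.1% of all features. In the fit without the WT arrays, where 23.1% of all features rose and 30.6% fell, Casq2 also rose in Mstn-null MDSC and Ryr1 fell. Cav3 was at 0.16 and -0.30 in Mstn-null, 3.08 and 0.28 in WT and -6.01 and -6.91 in ESC, not well above background in ESC. It was at least 32.3-fold higher in Mstn-null MDSC (limma adjusted p = 0.00514) and at least 109-fold higher in WT MDSC (adjusted p = 0.00289), or 41.3-fold from WT replicate 2 alone. The promoter of Cav3 is shown because of this large difference, at chr6:112459255-112459554 on the plus strand of GRCm38.p6 (RefSeq), with its 2 E-boxes in capitals.
Cav3: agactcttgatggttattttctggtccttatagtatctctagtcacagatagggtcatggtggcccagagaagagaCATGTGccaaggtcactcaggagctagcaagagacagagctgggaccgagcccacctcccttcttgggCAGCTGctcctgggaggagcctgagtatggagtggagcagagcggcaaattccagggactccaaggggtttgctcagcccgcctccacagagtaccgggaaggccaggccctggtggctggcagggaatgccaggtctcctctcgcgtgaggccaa

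Casq2, the cardiac and slow calcium-binding protein of the store, was at -1.64 and -2.41 in Mstn-null, 1.76 and -1.66 in WT and -4.65 and -4.79 in ESC. It rose in WT MDSC (4.77, limma adjusted p = 0.0202), and the difference in Mstn-null MDSC was 2.69 (adjusted p = 0.097). Ryr1, the calcium release channel, went the other way on 3 of 4 MDSC arrays: it was at -4.03 and -3.89 in Mstn-null, -0.03 and -3.65 in WT and -2.11 and -2.23 in ESC. Without WT replicate 1, Ryr1 fell against ESC in both Mstn-null (-1.79, limma adjusted p = 0.0044) and WT MDSC (-1.48, adjusted p = 0.0153). Jsrp1, a protein of the junction between membrane and store, was at 0.45 and 0.48 in Mstn-null, 3.38 and 0.96 in WT and 0.37 and 0.27 in ESC. Cacna1s, the voltage sensor, was not called.

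The muscle acetylcholine receptor receives the signal of the motor nerve, and its gamma subunit belongs to the fetal form. Chrna1, the alpha subunit, was at 0.61 and 0.10 in Mstn-null, 4.23 and 1.08 in WT and -3.44 and -4.25 in ESC. It rose in Mstn-null MDSC (4.20, limma adjusted p = 0.0236) and in WT MDSC (6.50, adjusted p = 0.00685), with every MDSC array above ESC. Chrnd, the delta subunit, was at -1.88 and -1.81 in Mstn-null, 2.35 and -1.22 in WT and -4.63 and -5.21 in ESC, and rose in WT MDSC (5.48, limma adjusted p = 0.0145). Chrng, the gamma subunit, was at -3.55 and -4.02 in Mstn-null, -0.90 and -3.59 in WT and -4.47 and -4.24 in ESC, and was not called. The promoter of Chrna1 is shown as that of the receptor gene that rose in both groups, at chr2:73580289-73580588 on the minus strand of GRCm38.p6 (RefSeq), with its 3 E-boxes in capitals.
Chrna1: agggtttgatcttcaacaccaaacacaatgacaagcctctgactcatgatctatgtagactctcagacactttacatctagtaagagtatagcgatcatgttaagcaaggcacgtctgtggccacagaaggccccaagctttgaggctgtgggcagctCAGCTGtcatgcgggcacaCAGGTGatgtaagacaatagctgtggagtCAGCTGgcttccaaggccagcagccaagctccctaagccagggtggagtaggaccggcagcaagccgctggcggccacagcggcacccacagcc

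Promoters were found for 35 of the 46 genes, 40 windows in all because some genes have several starts. CANNTG occurred in 82.5% of the 40 windows, against 72.3% of 32851 mouse promoters of the same length, and its form CAGCTG in 47.5% against 16.3%. CATTCC, the core of the M-CAT motif, occurred in 32.5% against 14.7%, the MEF2 box in 7.5% against 0.557%, and TATAAA in 30% against 13.6%. Both strands were searched, and CAGCTG matches are also CANNTG matches. These are matches of letters in a window.

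Mymx, which encodes a small membrane protein that muscle cells need for fusion, was the gene called lower than ESC in both MDSC groups. It was at -0.15 and -1.09 in Mstn-null, 2.72 and 0.03 in WT and 4.79 and 4.66 in ESC. Both ESC arrays stood above every MDSC array, including WT replicate 1. It fell in Mstn-null MDSC (-5.34 ± 0.91, SE, limma adjusted p = 0.00756) and in WT MDSC (-3.35 ± 0.91, adjusted p = 0.0314). The call in WT MDSC was lost without any 1 of the Mstn-null or ESC arrays. RefSeq lists Esgp among the synonyms of this gene. Mymk, its partner in fusion, was at -0.54 and -1.0 in Mstn-null, 2.30 and -0.22 in WT and -1.96 and -2.22 in ESC, and rose in WT MDSC (3.13, limma adjusted p = 0.028). The levels of these fusion genes thus ran in opposite orders between WT MDSC and ESC.

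Of the 2 tested genes of energy supply and protein turnover, none was called with all 6 arrays. Of all features, 23.3% rose and 30.8% fell in Mstn-null MDSC against ESC, and 27.1% rose and 25.9% fell in WT MDSC. Ckm, muscle creatine kinase, was at -4.54 and -4.15 in Mstn-null, -0.19 and -3.58 in WT and -5.67 and -4.71 in ESC. Trim63, a ubiquitin ligase of muscle wasting, was at -3.70 and -4.86 in Mstn-null, -0.84 and -4.20 in WT and -1.08 and -0.78 in ESC. For Trim63 the ESC arrays lay above 3 of the 4 MDSC arrays, and without WT replicate 1 it fell in Mstn-null MDSC (-3.35, limma adjusted p = 0.00811) and WT MDSC (-3.28, adjusted p = 0.0204). Klhl41, a stabiliser of thin filaments, was well above background on WT replicate 1 alone, at -0.80.

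Set by isoform class, WT MDSC rose against ESC in 3 of 3 cardiac isoforms that developing skeletal muscle also uses (median difference 4.42), 1 of 3 developmental isoforms (3.56), 1 of 2 slow isoforms, 3 of 6 isoforms of slow muscle and ventricle (2.91) and 5 of 9 tested fast isoforms (4.51), beside 27.1% of all features. In Mstn-null MDSC the counts higher were 1 of 3, 0 of 3, 1 of 2, 0 of 6 and 2 of 9 in the same order. The median differences there were 2.45, 1.83, 2.08, 1.31 and 2.61. Of the 6 isoforms of slow muscle and ventricle, 1 fell. Beside these counts, 23.3% of all features were called higher and 30.8% lower. With all 6 arrays, the counts of developmental isoforms in WT MDSC and of fast isoforms in Mstn-null MDSC were near these shares. Fitted on the Mstn-null and ESC arrays alone, Myl4, Myh3, Myh8, Tnnc1, Casq2, Myoz2, Tnnt3, Tnni2 and Tnnc2 rose as well. Actn3 and Mylpf of the fast class fell there, beside 23.1% of all features called higher and 30.6% lower. The classes were not tested against each other. The excess of WT replicate 1 over WT replicate 2 had a median of 3.26 in cardiac isoforms of developing muscle, 2.87 in developmental, 3.74 in slow, 3.20 in slow and ventricular and 3.87 in fast isoforms. It was thus present in every class, and WT replicate 1 enters the WT counts and medians above.

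**Figure D4:**
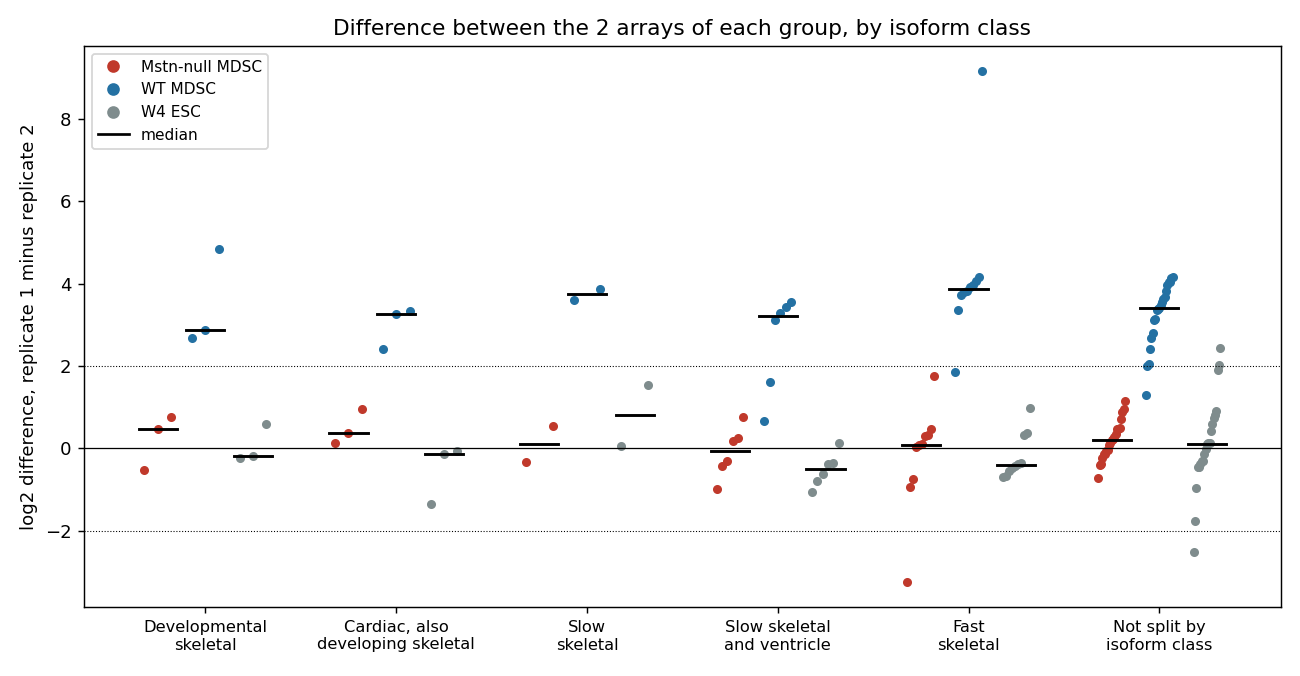
Log2 difference between replicate 1 and replicate 2 of each group (y axis) for the 45 genes with a probe, by isoform class, with black bars for medians and dotted lines at 2 and -2. The WT medians lie between 2.87 and 3.87 in the 5 isoform classes, while the Mstn-null and ESC points lie within 2 of 0 except for Myh4 in Mstn-null and Acta1, Neb and Ttn in ESC.

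Of 6 tested cardiomyocyte markers, 2 fell in Mstn-null MDSC against ESC and none rose, and in WT MDSC 3 fell and 1 rose. Over all features, 30.8% fell and 23.3% rose in Mstn-null MDSC, and 25.9% fell and 27.1% rose in WT MDSC. The count that fell in Mstn-null MDSC was thus near the share of all features. Myh6, the atrial heavy chain, was at -4.08 and -4.23 in Mstn-null, -4.04 and -4.53 in WT and 1.47 and 1.71 in ESC. It fell against ESC in both MDSC groups (-5.74 and -5.87, limma adjusted p = 0.00024 and 0.000244). Myl7, the atrial regulatory light chain, was at least 3.12-fold lower in WT MDSC than in ESC (limma adjusted p = 0.000679). Nkx2-5, a cardiac transcription factor, fell in WT MDSC (-2.30, limma adjusted p = 0.0406), and Nppa, a natriuretic peptide, rose there (0.87, adjusted p = 0.0247). Nppb and Tnni3 were not called in either comparison. The counts of skeletal and cardiomyocyte genes were not tested against each other.

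Of 77 other muscle genes, listed with earlier results known, 76 had a probe and 64 were tested. In Mstn-null MDSC 15 rose and 7 fell against ESC (median difference 0.62), and in WT MDSC 31 rose and 5 fell (1.5). The share called higher was 23.4% in Mstn-null MDSC, close to the 23.3% of all features, and 48.4% in WT MDSC, against 27.1%. WT replicate 1 was the highest array for 54 of the 76. Musk, the kinase that organises the neuromuscular junction, was at least 5.74-fold higher in Mstn-null MDSC (limma adjusted p = 0.00318) and at least 15.6-fold higher in WT MDSC (adjusted p = 0.00174), or 10.0-fold from WT replicate 2 alone. Tpm2, a tropomyosin (2.69), and Cryab, a small heat shock protein (2.26), followed among the rises in Mstn-null MDSC. Myot, a Z disc protein, was at 0.14 and -3.87 in WT and -6.31 and -6.49 in ESC, at least 9.36-fold higher in WT MDSC. Cacng1, a calcium channel subunit, was at -0.28 and -3.50 in WT and -5.83 and -6.90 in ESC, at least 9.20-fold higher. From WT replicate 2 alone these bounds were 2.33-fold for Myot and 3.01-fold for Cacng1. Besides Myh6, Myh13 was at least 4.18-fold lower in Mstn-null MDSC and at least 4.42-fold lower in WT MDSC, and Myh7b at least 9.60-fold lower in Mstn-null MDSC.

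Between Mstn-null and WT MDSC, none of the 43 genes was called, nor was any feature on the array (0% of features, limma), while 3 of the 43 genes and 3671 of 25055 features had an unadjusted p under 0.05. With quantile normalization 11 features were called higher and 14 lower, none of them among the 43 genes. The difference was negative for 42 of 43 genes, with a median of -1.76 against -0.12 over all features. Macrophage and immune markers went in the other direction: the 6 with a probe were higher in Mstn-null than in WT MDSC by 2.30 to 4.29, and none was called. Their summed signal was 52.8 and 197 in Mstn-null, 15.9 and 8.9 in WT and 1.7 and 2.8 in ESC. Their part in the difference was not tested. Slide and genotype cannot be told apart in this comparison. The Mstn-null arrays lay below both WT arrays for 19 of 43 genes, against 34.8% of all features. Without WT replicate 1 the median was -0.14, with 26 differences negative and 17 positive, and again none was called. Without WT replicate 2 it was -3.72. The median difference between genotypes thus depended on which WT array was used.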

How the data were processed

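Total RNA (0.5 µg) of 6 cultures was labelled with Cy3 and hybridised to Agilent mouse arrays in 1 colour, as the labels' protocols say. The authors deposited scanner output with background-corrected spot intensities from Agilent Feature Extraction (10.7.1.1 per the file headers, 9.1 per the submitters' processing notes), not scaled between arrays. The array design used mouse build mm9, per the file headers. Flag columns of the deposited files (other values) marked outlier spots and spots well above background.

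Outlier spots were left out, spots of a probe were averaged, and values were log2 of the intensity minus the array's 75th percentile. Gene symbols came from RefSeq (GRCm38.p6) through accessions, for 26413 of 55681 probes, so no gene coordinates are given except those of promoters. The brightest probe stood for a gene, and 10 of the 46 genes had several. A feature was tested when both replicates of any group were well above background, which held for 25055 of 37153. One limma 3.58.1 model (R 4.3.3, two-sided) held the 3 group means, with 3 residual and 2.02 prior degrees of freedom. The steps were tested on simulated data.

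The genes and lists were chosen with earlier results of these data known. All genes are accounted for. Per-array values are given for the gene with the highest mean or largest difference in each role and isoform class and for genes whose order of groups differs, the latter chosen after their values were seen. The 3 largest called rises and falls of the other muscle genes are named. The labels name separate isolations for MDSC and separate passages for ESC. The p-values use a spread between these that is pooled over all groups, so they do not measure only that of the groups compared. Results were recomputed with median centring, with quantile normalization, with normexp on median signals (offset 50), other filters, flagged spots kept, probes averaged, only the compared groups, a trended robust variance, each array left out, and a replicate block.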

Additional observations from a re-analysis of the deposited data

Results flagged for a closer look

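Xirp1, which encodes an actin-binding protein of the intercalated disc and myotendinous junction, had differences from ESC of opposite sign in the MDSC groups, -0.32 in Mstn-null MDSC and 1.57 in WT MDSC, neither of them called. Its levels were -3.80 and -4.28 in Mstn-null, -1.13 and -3.16 in WT and -3.87 and -3.57 in ESC. The difference between Mstn-null and WT MDSC, -1.89, did not pass the threshold (limma adjusted p = 0.309). WT replicate 1 was the highest array here too.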

How the results depend on the processing

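In Mstn-null MDSC against ESC, the genes called higher numbered 11 with median centring, 2 with normexp and 20 with only the groups compared, and 2 to 21 when each array was left out. Those called lower numbered 1 with quantile normalization, median centring, normexp or no filter, 6 with only the groups compared, and 1 to 6 when each array was left out. Among all features, 6252 of 25055 rose with median centring, 6138 of 25052 with normexp and 5617 of 24365 with only the groups compared. Those that fell numbered 6953 of 25057 with quantile normalization, 5471 with median centring and 7463 with normexp. With no filter 7294 of 37153 fell, and with only the groups compared 7456. The median difference over the contractile genes was 1.88 with median centring, 0.74 with normexp and 0.82 over genes well above background on all arrays. For WT MDSC against ESC, 5919 of 19851 features well above background on all arrays rose and 5067 fell. In WT MDSC against ESC, the genes called higher numbered 12 of 29 over genes well above background on all arrays and 7 to 38 when each array was left out, those called lower 0 to 4, and the median difference 1.14 to 4.99. Between Mstn-null and WT MDSC, none of the 43 genes was called under any alternative run, and the median difference ran from -3.72 to -0.14 when each array was left out. The difference of Ldb3 between Mstn-null and WT MDSC turned to -0.30 with the mean over probes and, when each array was left out, ran from -0.11 (without WT replicate 2) to 1.19 (without WT replicate 1). The cause of these changes was not tested, apart from the lower number of genes in the stricter filter. Median centring moved the median of all features from -0.12 to 0.10 in Mstn-null MDSC against ESC. Same-numbered MDSC isolations did not deviate together (correlation of deviations -0.40 over 25055 features). With the replicate number as a block, 0 genes were called higher and 0 lower between Mstn-null and WT MDSC, with a median difference of -1.75, and a crossed block, chosen after seeing the data, also called 0 and 0. The number of arrays limits precision, and genes near background, such as Myh2, Mylpf and Klhl41, have the least certain levels.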
